A study of Mus musculus with 4 samples.

Results

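The genes described here are 36 enzymes that remove methyl groups from histones, remove acetyl groups or add acetyl groups, and they were taken by name from the platform annotation of Affymetrix mouse genome arrays. All 36 were measured, on 77 of the 45037 probe sets tested, and each gene was represented by its most intense probe set, as were the 18193 genes in all. The tumour group holds 2 arrays of CD4+CD8+ double-positive (DP) cells. They were taken from a peripheral tumour, named a thymoma, in which Notch1-IC (the active intracellular part of the Notch1 receptor) is over-expressed, and carry the genotype label T-ALL (T-cell acute lymphoblastic leukaemia). The normal group holds 2 arrays of DP cells from normal thymus with the genotype label WT, and all 4 samples carry the C57/BLACK6 background. DP cells are the immature T-lineage cells that carry both co-receptors. A further label calls all 4 samples tumour cells, against the titles, sources and genotypes of the 2 normal ones. The sources used here do not give age, sex, the number of animals or how Notch1-IC was delivered. P-values therefore rest only on how far arrays within a group differ, which may be technical. That spread is in large part borrowed from other probe sets of like level. Tissue site and tumour state follow the same 2 groups and cannot be told apart. The signal ratio between the ends of control transcripts also differs between these groups, as do sex-linked genes (both given below).

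Histone acetylation loosens chromatin and marks active genes. Acetyltransferases such as p300, CBP, GCN5 and PCAF write the mark, and the zinc-dependent deacetylases (HDACs) and the NAD-dependent sirtuins remove it. Demethylases of the flavin-dependent (KDM1) and JmjC (KDM2 to KDM6) kinds erase histone methylation, and each family prefers certain lysines. In Notch signalling the DNA-bound factor RBPJ carries corepressors with deacetylases and demethylases when Notch is silent, and a coactivator that brings p300 when the intracellular part of Notch is bound.

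The promoter windows of the 3 genes that differed by more than 2-fold and have a single start site listed are shown, since these genes carry 3 of the 4 differences of that size that passed the test. The sequences are from RefSeq (GRCm38.p6) and run from 250 bases before to 50 bases after the start, 5′ to 3′ on the gene's strand. Capitals mark TGGGAA, the core that RBPJ binds, or its reverse complement. CACGTG, the E-box bound by Myc, was searched too and is in none of the 3 windows.
Kdm5b: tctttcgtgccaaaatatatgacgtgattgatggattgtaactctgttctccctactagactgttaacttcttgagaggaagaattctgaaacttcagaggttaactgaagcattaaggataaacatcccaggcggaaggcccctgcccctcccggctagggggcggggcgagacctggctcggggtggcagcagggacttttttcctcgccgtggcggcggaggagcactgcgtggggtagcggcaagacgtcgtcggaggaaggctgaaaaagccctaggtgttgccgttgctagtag
Kat2a: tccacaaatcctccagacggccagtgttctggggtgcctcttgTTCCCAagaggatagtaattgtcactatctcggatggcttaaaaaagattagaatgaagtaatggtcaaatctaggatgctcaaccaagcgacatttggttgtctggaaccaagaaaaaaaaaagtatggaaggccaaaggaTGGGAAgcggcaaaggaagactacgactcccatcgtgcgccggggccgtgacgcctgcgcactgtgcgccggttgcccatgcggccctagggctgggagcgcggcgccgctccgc
Hdac6: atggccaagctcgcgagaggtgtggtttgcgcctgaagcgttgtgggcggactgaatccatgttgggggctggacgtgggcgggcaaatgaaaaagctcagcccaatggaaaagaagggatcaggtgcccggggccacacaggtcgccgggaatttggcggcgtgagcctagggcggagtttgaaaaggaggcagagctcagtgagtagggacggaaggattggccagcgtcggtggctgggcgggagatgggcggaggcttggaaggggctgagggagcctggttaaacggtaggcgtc
The windows lie at chr1:134559928-134560227 (plus strand, Kdm5b), chr11:100712418-100712717 (minus strand, Kat2a) and chrX:7947840-7948139 (minus strand, Hdac6). Kat2a has TGGGAA in the sense direction 65 bases and in the antisense direction 207 bases before its start, and the Kdm5b and Hdac6 windows hold neither motif. On both strands, TGGGAA is in 8 of the 42 windows of the 28 enzyme genes that the table lists, against 25.6% of all 32851 windows, and CACGTG in 11.9% against 7.15%. A match describes letters and is no evidence of binding.

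In tumour DP cells the demethylase Kdm5b, which erases a methyl mark of active promoters, was 7.83-fold lower and the acetyltransferase Kat2a (GCN5) 3.62-fold higher than in normal DP cells, and these were the largest differences among the 36 genes that passed the test. The class IIa deacetylase Hdac7 was 2.23-fold lower and the cytoplasmic deacetylase Hdac6 2.16-fold higher. By limma's moderated test on log2 intensity, with Benjamini-Hochberg adjustment over all probe sets and a threshold of 0.05, 8 of the 36 genes were called higher and 9 lower on their most intense probe set. Kdm6b counts among the 8 by that rule, although its other probe sets were called lower. Hdac2 counts there too, although its dimmest probe set was called lower, and so does Kdm2b, whose other probe set lay at -0.39 and did not pass. Without probe sets named _s_at or _x_at, whose probes can match several transcripts, 5 genes were higher and 12 lower. With a gene's probe sets averaged, 3 were higher and 11 lower. Of all called genes 54.6% and 51.4% were then higher, against 58.3% in the main fit. The 8 and 9 genes are 22.2% and 25% of the 36, beside 16.3% higher and 11.7% lower among all 18193 genes. Among the 7816 genes whose log2 intensity averaged 6 or more over the 4 arrays, the shares were 30% higher and 24.4% lower. The 31 enzyme genes in that range hold the same 8 and 9, or 25.8% and 29.0%. The median log2 fold change was -0.06 for the 36 genes and 0.09 for all genes. Of the 17 that passed, 13 differed by less than 2-fold. With any 1 of the 4 arrays left out 4 to 5 genes were higher and 4 to 7 lower, and with a constant in place of a level-dependent prior in limma none of the 36 passed (before adjustment, 4 higher and 4 lower genes had p below 0.05). Hdac9 lay at or below the array background (the highest signal among 27 control probe sets without target) on all 4 arrays and has no fold.

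**Figure D1:**
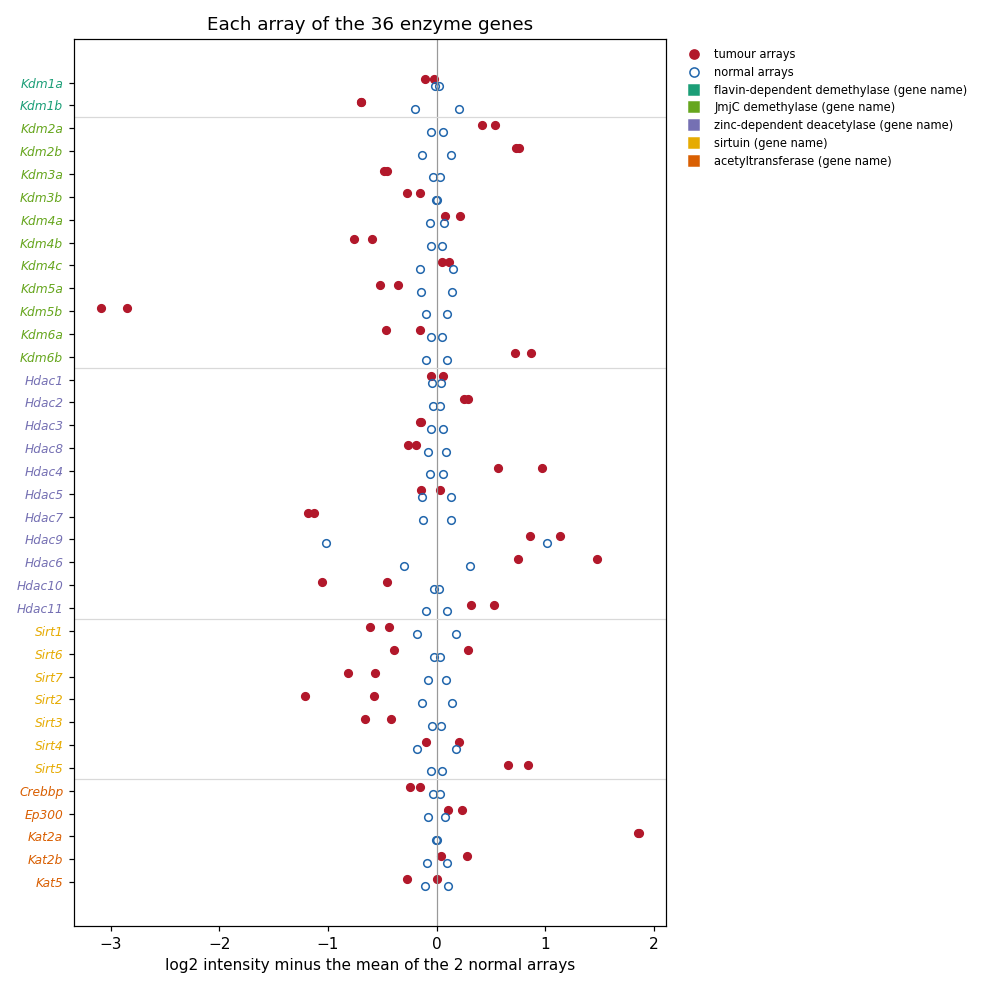
Log2 intensity of each array minus the mean of the 2 normal arrays, for the most intense probe set of each of the 36 genes, grouped by enzyme class (colour of the gene name), with filled points for tumour arrays and open points for normal arrays. Both tumour arrays lie far left of the normal arrays for Kdm5b and far right for Kat2a, and most other genes lie within 1 log2 unit. Hdac9 is at background on all 4 arrays.

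Arrays of a group were alike, with r = 0.991 across the 10772 probe sets averaging 7 or more (log2) in the tumour group and 0.990 in the normal group, and 0.819 to 0.826 between groups. Notch1 was higher in tumour arrays by 2.62 ± 0.073 (log2 difference, SE, n = 2 per group, limma adjusted p = 4.48e-08). Of 6 measured DP markers 5 fell, and their summed intensity was 12127 and 11961 in tumour arrays against 35669 and 36909 in normal arrays, with Cd4 and Cd8a above background on all 4. As deposited, the 4 arrays had medians of 18.7 and 18.7 (tumour) and 18.8 and 18.8 (normal), a shared distribution in which a shift common to all genes cannot be seen. Bacterial BioB, BioC and BioD control probe sets, 14 in all, lay 0.60 higher (log2) in tumour arrays, by 0.28 to 0.91 each. The cause of this offset, and whether it bears on RNA per cell, was not tested. Scaling to them moved the median of all genes to -0.51 and the share of higher among called genes to 20.1%, against 58.3% as deposited. Under that scaling 1 of the 36 genes (Kat2a) rose and 25 fell, and 29 lay below 0 in place of 21. All directions below are relative to the deposited scale. In such bulk RNA, fewer cells of a type and less RNA per cell cannot be told apart.

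**Figure D2:**
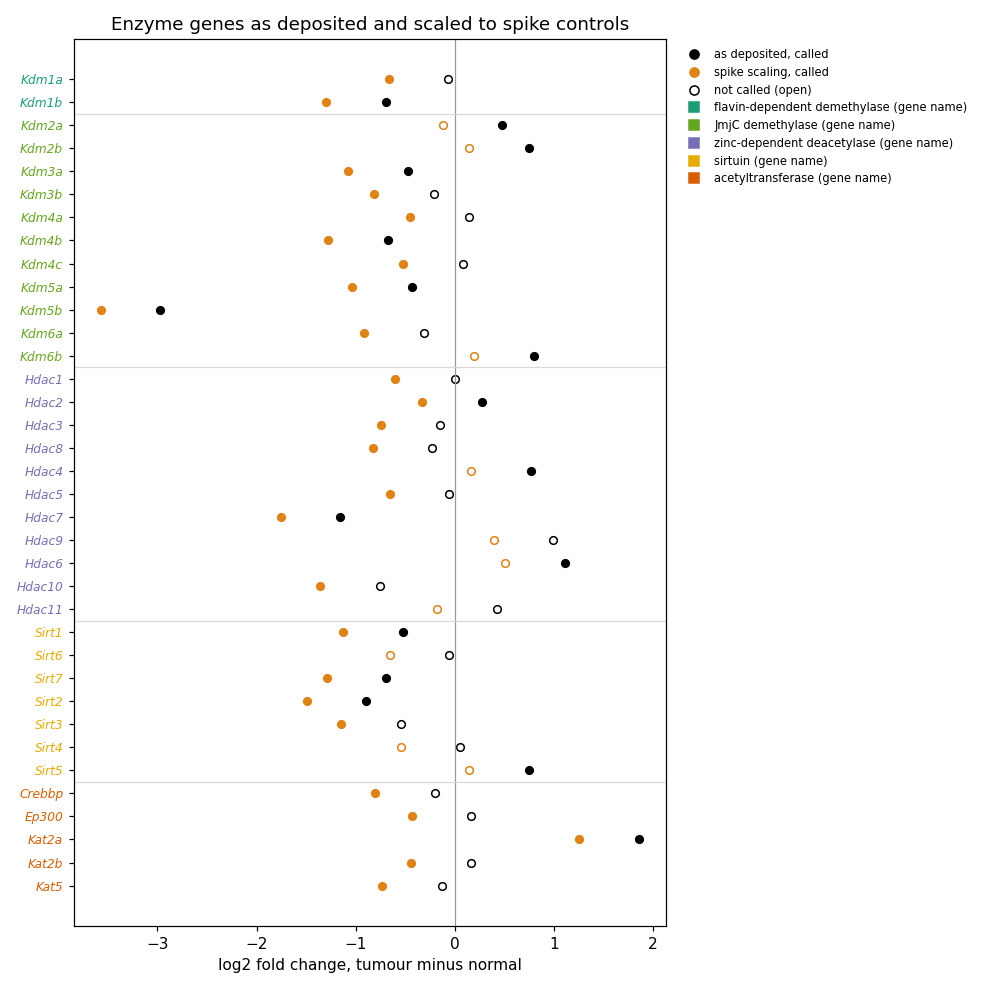
Log2 fold change (tumour minus normal) of the 36 genes as deposited (black) and after scaling to the BioB, BioC and BioD controls (orange), filled where the limma adjusted p is below 0.05. Each gene shifts left by 0.60 and Kat2a is the gene that stays called on the right.

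The flavin-dependent demethylases remove methyl groups from mono- and dimethylated lysines, and Kdm1a (LSD1) works in the CoREST corepressor complex. Kdm1b (LSD2), its paralogue, had intensities of 183 in both tumour arrays against 258 and 343 in normal arrays. The tumour values lie below both normal ones, and Kdm1b fell by 0.70 ± 0.16 (log2, SE, n = 2 per group, limma adjusted p = 0.0112). Its call ended without tumour replicate 1, tumour replicate 2 or normal replicate 2 (adjusted p = 0.0756, 0.0812 and 0.115). Kdm1a had 1425 and 1348 in tumour arrays and 1469 and 1429.8 in normal arrays on its most intense probe set. That difference of -0.06 did not pass (95% interval -0.24 to 0.11), while its other probe set, with 309 and 299 in tumour arrays against 530.4 and 514 in normal arrays, differed by -0.78 ± 0.11 (adjusted p = 0.00061). The 2 probe sets of Kdm1a thus give different sizes. The first is named _s_at, and probe sets named _s_at or _x_at, whose probes can match several transcripts, are called shared below.

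Among the 11 JmjC demethylases 4 were called lower and 3 higher on their most intense probe set, with a median of -0.21. The 3 include Kdm6b, whose probe sets went both ways. The class shares are 36.4% lower and 27.3% higher. They stand beside 24.4% and 30% among genes averaging 6 or more (log2), and 11.7% and 16.3% among all genes. Kdm5b (JARID1B) removes the methyl mark of active promoters. Its intensity was 146 and 124 in tumour arrays against 1124 and 987 in normal arrays, with no overlap. It fell by 2.97 ± 0.13 (log2, SE, n = 2 per group, limma adjusted p = 5.35e-07). Of its 3 other probe sets 2 passed in the same direction, at -2.00 ± 0.28 and, with both tumour arrays at or below background, at least 8.04-fold lower, and the last, above background on 1 of the 2 tumour arrays, differed by -0.87 (adjusted p = 0.242). Kdm5a, of the same family and a partner of RBPJ in Notch target repression, had 544 and 612 in tumour arrays against 707 and 862 in normal arrays. It fell by 0.44 ± 0.12 (adjusted p = 0.0272), and 2 of its 5 other probe sets were lower too (-0.65 and -1.13). The Kdm5a call ended without tumour replicate 1, tumour replicate 2 or normal replicate 2 (adjusted p = 0.206, 0.0802 and 0.206).

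The KDM3 and KDM4 enzymes remove methyl marks of silent chromatin. Kdm3a had 825 and 840.3 in tumour arrays against 1184 and 1129 in normal arrays and fell by 0.47 ± 0.085 (log2, SE, n = 2 per group, limma adjusted p = 0.00273). The tumour arrays of Kdm3a lie below both normal ones and close to each other. Kdm4b had 80.4 and 90.0 in tumour arrays against 141 and 131 in normal arrays and fell by 0.68 ± 0.19 (adjusted p = 0.0280). The Kdm4b call ended when any 1 of the 4 arrays was left out (adjusted p = 0.112 and 0.0580 without tumour replicates 1 and 2, 0.179 and 0.110 without normal replicates 1 and 2). Kdm3b, Kdm4a and Kdm4c did not pass, at -0.21, 0.14 and 0.08 on the log2 scale, and their 95% intervals ran from -0.44 to 0.01, from -0.13 to 0.42 and from -0.26 to 0.42. With scaling to the spike controls Kdm4a and Kdm4c lay below 0 and passed, at -0.46 and -0.52.

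Both KDM2 enzymes, which bind unmethylated CpG islands, were higher on their most intense probe set. Kdm2b had 902 and 919.5 in tumour arrays against 495 and 597 in normal arrays, without overlap, and rose by 0.74 ± 0.11 (log2, SE, n = 2 per group, limma adjusted p = 0.000887). That probe set is a shared one. The second Kdm2b probe set, with 319.6 and 267 in tumour arrays against 409 and 360.2 in normal arrays, lay the other way at -0.39 (adjusted p = 0.0704), so the direction of Kdm2b rests on the choice of probe set. Kdm2a rose by 0.48 ± 0.13 (adjusted p = 0.0293), with 298 and 275 in tumour arrays against 198 and 213 in normal arrays. None of its 6 other probe sets passed. Of these, 4 lay between -0.97 and -0.03, 1, whose normal arrays did not exceed background, was at least 1.89-fold higher (adjusted p = 0.0870), and 1 was at or below background on all 4 arrays. The Kdm2a call ended when any 1 array was left out (adjusted p = 0.0771 to 0.157), and with spike scaling Kdm2a lay at -0.12.

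The KDM6 enzymes erase the methyl mark laid by Polycomb, and in T-ALL Kdm6a is known as a tumour suppressor and Kdm6b (JMJD3) as a Notch partner. The 3 probe sets of Kdm6b went both ways. The most intense, a shared _x_at probe set, had 1075 and 1195 in tumour arrays against 698 and 612 in normal arrays, a rise of 0.79 ± 0.10 (log2, SE, n = 2 per group, limma adjusted p = 0.000369). The next, not a shared one, had 619.6 and 606 in tumour arrays against 1117 and 1015 in normal arrays, at -0.80 ± 0.094 (adjusted p = 0.000197). The dimmest had 40.7 and 36.8 in tumour arrays against 195 and 183 in normal arrays, at -2.29 ± 0.21 (adjusted p = 3.82e-05). Each of the 3 separates the groups, and no direction is given to Kdm6b as a gene.

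Kdm6a had 388 and 482 in tumour arrays against 519 and 555 in normal arrays, and its difference of -0.31 ± 0.13 (log2, SE, n = 2 per group) did not pass (95% interval -0.60 to -0.02, limma adjusted p = 0.123). Of its 3 other probe sets, the dimmest was at or below background on all 4 arrays and has no fold, and the rest lay at -0.37 and -0.36 and did not pass. Kdm6a lies on the X chromosome and is known to escape X inactivation. In the same arrays Xist, the RNA of the inactive X, was at least 375-fold lower in tumour arrays (adjusted p = 1.46e-08), and the Y-linked Eif2s3y rose by 1.89 ± 0.11. Both were above background on the normal arrays, at 5968 and 5578 for Xist and 290 and 345 for Eif2s3y. The tumour arrays had Xist at or below background, and Eif2s3y at 1221 and 1127. Uty and Kdm5d, the Y-linked counterparts of Kdm6a and Kdm5c, rose by 1.00 ± 0.26 and 0.65 ± 0.19 (adjusted p = 0.0216 and 0.0327). The Uty call ended without tumour replicate 1, tumour replicate 2 or normal replicate 1 (adjusted p = 0.104, 0.125 and 0.146), that of Kdm5d without tumour replicate 2, normal replicate 1 or normal replicate 2 (adjusted p = 0.202, 0.175 and 0.117), and both with spike scaling (0.40 and 0.05). Kdm5c, X-linked as well, differed by 0.07 ± 0.14 (adjusted p = 0.808) and lay at -0.53 with spike scaling. Hdac6, Hdac8 and the corepressor subunit Tbl1x, given below, lie on the X chromosome too. The part of the sex-linked difference in the values of Kdm6a and of these genes was not tested.

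On their most intense probe set, 3 of the 11 zinc-dependent deacetylases rose, 1 fell and 7 did not pass, with a median of 0.00. The 3 include Hdac2, whose probe sets went both ways. The class shares are 27.3% higher and 9.09% lower. They stand beside 30% and 24.4% among genes averaging 6 or more (log2), and 16.3% and 11.7% among all genes. The class I enzymes Hdac1 and Hdac2 are the catalytic subunits of the NuRD, SIN3 and CoREST complexes, and Hdac3 that of the NCoR and SMRT complexes. Hdac1 had 2029 and 2193 in tumour arrays against 2046 and 2176 in normal arrays, and the groups overlap, with a log2 fold change of 0.00 and a 95% interval from -0.17 to 0.17. Hdac2 rose by 0.27 ± 0.071 on a shared probe set (SE, n = 2 per group, limma adjusted p = 0.0208), with 2193 and 2244 in tumour arrays against 1880 and 1799.8 in normal arrays. Its other probe sets are not shared ones. The second differed by 0.14 (adjusted p = 0.459) and the dimmest by -1.44 ± 0.33 (adjusted p = 0.0107). With spike scaling the most intense Hdac2 probe set was lower at -0.33. The Hdac2 call ended without tumour replicate 1, tumour replicate 2 or normal replicate 2 (adjusted p = 0.121, 0.162 and 0.0947). Hdac3 at -0.15 on a shared probe set (95% interval -0.37 to 0.08) and Hdac8 at -0.23 (-0.73 to 0.28) did not pass.

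The class IIa deacetylases shuttle between nucleus and cytoplasm, and Hdac7 represses Nr4a1 in DP thymocytes until a T-cell receptor signal exports it. Hdac7 had 640.5 and 663 in tumour arrays against 1586 and 1329 in normal arrays, without overlap, and fell by 1.16 ± 0.10 (log2, SE, n = 2 per group, limma adjusted p = 3.32e-05). Its second probe set gave -1.03 ± 0.16 (adjusted p = 0.000989). Hdac4 moved the other way on all 3 of its probe sets. The most intense had 169.6 and 127 in tumour arrays against 90.1 and 82.8 in normal arrays and rose by 0.77 ± 0.21 (adjusted p = 0.0230). The second, with 164 and 186 in tumour arrays against 45.5 and 57.4 in normal arrays, rose by 1.78 ± 0.21 (adjusted p = 0.000226), and the dimmest, with both normal arrays at or below background, was at least 2.04-fold higher (adjusted p = 0.0411). For the first Hdac4 probe set the call ended without tumour replicate 1, normal replicate 1 or normal replicate 2 (adjusted p = 0.157, 0.0943 and 0.137), and with spike scaling it was 0.17 (adjusted p = 0.604). Hdac5 had 116 and 103 in tumour arrays and 124 and 103 in normal arrays, which overlap.

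Hdac6, an X-linked class IIb enzyme that deacetylates tubulin, had 77.3 and 128 in tumour arrays against 37.4 and 56.9 in normal arrays. The groups do not overlap, but the spread within each is wide, and Hdac6 rose by 1.11 ± 0.32 (log2, SE, n = 2 per group, limma adjusted p = 0.0324). The Hdac6 call ended without tumour replicate 2, normal replicate 1 or normal replicate 2 (adjusted p = 0.229, 0.242 and 0.0556). Hdac10, the other class IIb enzyme, had 79.1 and 52.2 in tumour arrays against 107 and 110.4 in normal arrays, at -0.76 ± 0.25 (adjusted p = 0.0579), and passed without tumour replicate 1 (-1.06, adjusted p = 0.0257). Hdac11, the class IV enzyme, was near background at 17.7 and 20.5 in tumour arrays and 13.3 and 15.2 in normal arrays, and did not pass.

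Of the 7 sirtuins 3 fell (42.9%) and 1 rose (14.3%), with a median of -0.53. Among all genes 11.7% fell and 16.3% rose. Among genes averaging 6 or more (log2) 24.4% fell and 30% rose, and shares of so few sirtuins move far with 1 call. Sirt7, a nucleolar and chromatin deacetylase, had 819 and 689 in tumour arrays against 1285 and 1144 in normal arrays, without overlap, and fell by 0.69 ± 0.11 (log2, SE, n = 2 per group, limma adjusted p = 0.00127). Sirt1, which deacetylates histones and transcription factors and acts with LSD1 in Notch target repression, had 387 and 435 in tumour arrays against 522 and 667 in normal arrays and fell by 0.53 ± 0.14 (adjusted p = 0.0197). The cytosolic tubulin deacetylase Sirt2 fell by 0.89 ± 0.20 (adjusted p = 0.00881), with 306 and 197 in tumour arrays against 501.15 and 414 in normal arrays. In all 3 genes both tumour arrays lie below both normal arrays, and Sirt2 has the widest gap between its tumour arrays. Sirt1 lost its call without tumour replicate 1, tumour replicate 2 or normal replicate 2 (adjusted p = 0.165, 0.0740 and 0.169), and Sirt2 without tumour replicate 2 or normal replicate 1 (adjusted p = 0.0719 and 0.130).

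The mitochondrial desuccinylase Sirt5 was the sirtuin that rose, with 211 and 239 in tumour arrays against 129 and 138 in normal arrays and a log2 fold change of 0.75 ± 0.16 (SE, n = 2 per group, limma adjusted p = 0.00634). A second, shared probe set lay at 0.39 and did not pass (adjusted p = 0.266), and the dimmest exceeded background on 1 tumour array alone and has no fold. The Sirt5 call ended without tumour replicate 2 or normal replicate 1 (adjusted p = 0.0642 and 0.0558), and with spike scaling it was 0.15 (adjusted p = 0.567). Sirt3, the main mitochondrial deacetylase, had 41.4 and 35.2 in tumour arrays against 57.1 and 54.0 in normal arrays, and its difference of -0.54 did not pass (95% interval -1.20 to 0.11). Sirt4 and Sirt6 overlapped between groups, at 0.06 and -0.05.

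**Figure D3:**
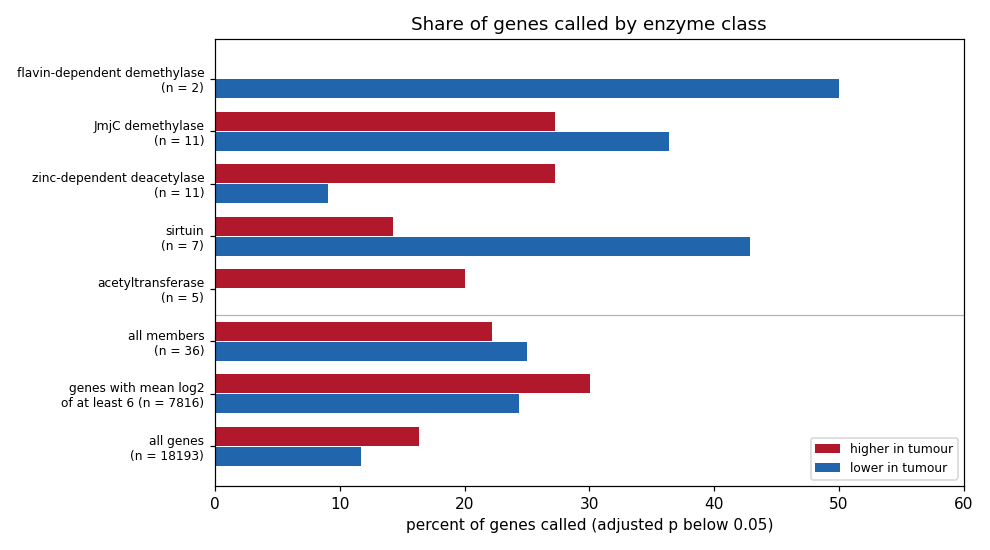
Percent of genes called higher (red) and lower (blue) in tumour against normal DP cells for each enzyme class, for all 36 genes, for genes averaging 6 or more on the log2 scale, and for all genes. The sirtuins and demethylases have longer blue bars, the deacetylases and acetyltransferases longer red ones, and each class bar rests on at most 11 genes. The red acetyltransferase bar is Kat2a alone. With a gene's probe sets averaged, 1 deacetylase and 1 acetyltransferase were higher and 1 of each lower. Without shared probe sets these were 2 and 1 higher and again 1 of each lower. The sirtuins kept 1 higher and 3 lower in both.

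Of the 5 acetyltransferases Kat2a rose and the other 4 did not pass (limma, where without adjustment Crebbp was below 0.05 as well). That is 20% higher, beside 30% among genes averaging 6 or more (log2) and 16.3% among all genes. Kat2a is the catalytic subunit of the SAGA and ATAC coactivator complexes. It had 553.5 and 549 in tumour arrays against 152 and 153 in normal arrays, so the arrays of a group nearly coincide and the groups lie far apart. The rise was 1.86 ± 0.12 (log2, SE, n = 2 per group, limma adjusted p = 4.73e-06). Its other probe sets rose too, by 0.89 ± 0.24 (adjusted p = 0.0218) and 2.17 ± 0.43 (adjusted p = 0.00496, 1 of the 2 normal arrays above background). Kat2a stayed higher with spike scaling (1.26, adjusted p = 4.13e-05).

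Kat2b (PCAF), the paralogue of Kat2a, had 675 and 799.9 in tumour arrays and 617 and 700.3 in normal arrays, which overlap, with a log2 fold change of 0.16 on this shared probe set (95% interval -0.10 to 0.42). An unshared Kat2b probe set, with 82.3 and 63.0 in tumour arrays against 109.7 and 104 in normal arrays, lay the other way at -0.57 and did not pass either (adjusted p = 0.104), and the dimmest was above background on 1 array of each group (0.81, adjusted p = 0.640). The Notch coactivator Ep300 had 537 and 587 in tumour arrays and 475 and 529 in normal arrays, at 0.16 (-0.08 to 0.41). Crebbp, its close relative, lay at -0.20 (-0.40 to -0.01, limma adjusted p = 0.142) on its most intense probe set, with 1002 and 942 in tumour arrays and 1091 and 1143 in normal arrays. Of its 3 other probe sets 1 was lower at -0.60 ± 0.15 (adjusted p = 0.0164), and those at -0.05 (adjusted p = 0.797) and 0.86 (adjusted p = 0.230, 1 of the 2 normal arrays above background) did not pass. Kat5 (TIP60), the catalytic subunit of NuA4, differed by -0.13 on its most intense, shared probe set. Its other probe set, with 141 and 159 in tumour arrays against 264 and 274 in normal arrays, differed by -0.84 ± 0.15 (adjusted p = 0.00206). With spike scaling Ep300 and Kat2b were lower, at -0.44 each, and Crebbp and Kat5 too, at -0.80 and -0.73.

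Over the 77 probe sets 12 were higher and 20 lower, beside 5084 (11.3%) and 5189 (11.5%) of all 45037 probe sets. A share among probe sets of like level was not counted. By gene, calls were more frequent at higher level, with 16.3% higher and 11.7% lower among all genes. Among genes averaging 6 or more (log2) these were 30% and 24.4%. Of the 20 enzyme genes with several probe sets, 2 (Kdm6b and Hdac2) had probe sets called both ways, 10% against 4.31% of the 9010 such genes on the array. With probe sets of a mean log2 below 6 left out it was 1 of 14, or 7.14%, against 9.62% of 3182 genes. In the tumour arrays the 3′ to 5′ signal ratio of control probe sets was higher, at 2.46 and 2.53 against 1.28 and 1.20 in normal arrays for beta-actin, and 1.84 and 1.85 against 0.912 and 0.897 for Gapdh. Where the probe sets of a gene lie along its transcript is not given. The part of this ratio in the disagreement of probe sets, or in any fold between the groups, was not tested.

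**Figure D4:**
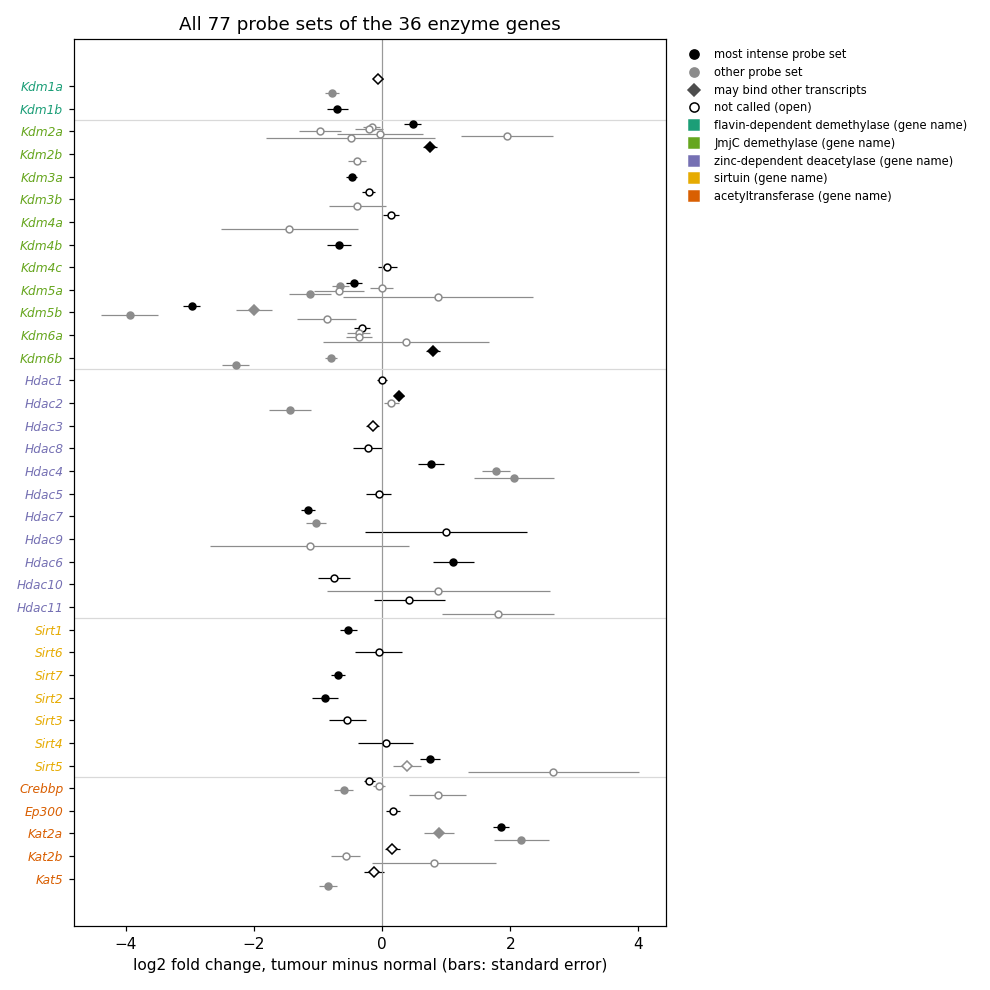
Log2 fold change (tumour minus normal) of all 77 probe sets with its standard error, in black for the most intense probe set of a gene and in grey for the others, filled where the limma adjusted p is below 0.05 and as diamonds for shared probe sets (named _s_at or _x_at). Points of probe sets at or below background on both arrays of a group are fitted values and not measured folds. The probe sets of Kat2a, Hdac4, Hdac7 and Kdm5b lie on 1 side of 0, and those of Kdm6b, Kdm2b and Hdac2 on both.

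Partner subunits and related enzymes were counted from lists drawn up for this comparison. The counts stand beside 16.3% higher and 11.7% lower among all genes, and 30% and 24.4% among genes averaging 6 or more (log2). Of 23 measured SAGA, ATAC and NuA4 subunits 7 rose and 5 fell, shares close to those of the brighter genes. Tada2a, an adaptor that sits beside Kat2a in an acetyltransferase module, rose by 1.76 ± 0.17 (log2, SE, n = 2 per group, limma adjusted p = 5.09e-05). Its intensity was 314 and 379.7 in tumour arrays against 112 and 93.5 in normal arrays. Sgf29, the Tudor-domain reader of the same module, rose by 0.95 ± 0.13 (adjusted p = 0.000452), while Tada3, also of that module, fell by 0.92 ± 0.22 (adjusted p = 0.0120), a call that ended without tumour replicate 1, normal replicate 1 or normal replicate 2 (adjusted p = 0.0698, 0.0900 and 0.110). Supt20 fell by 0.97 ± 0.15 on a shared probe set (adjusted p = 0.00135) and lay at 0.49 (adjusted p = 0.0739) without shared probe sets. Tada2b, from the same list, overlapped between groups and did not pass (-0.04, adjusted p = 0.914). With spike scaling Tada2a stayed higher (1.16), Sgf29 did not pass (0.35) and the list had 1 gene higher and 15 lower.

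Of 22 measured subunits of the NuRD, SIN3 and CoREST complexes 5 rose and 3 fell, both smaller shares than the 30% and 24.4% of the brighter genes. Chd3, a NuRD remodelling ATPase, rose by 1.57 ± 0.15 (log2, SE, n = 2 per group, limma adjusted p = 5.05e-05), with 315 and 344 in tumour arrays against 117 and 106 in normal arrays. Mta1, a NuRD scaffold that binds Hdac1 and Hdac2, rose by 1.12 ± 0.12 (adjusted p = 0.000101). The SIN3 scaffold Sin3b, on a shared probe set, had 2126 and 2206 in tumour arrays against 4579 and 4298 in normal arrays. It fell by 1.03 ± 0.066 (adjusted p = 4.32e-06), and its log2 difference ran from -1.64 to -0.66 over all settings. Rcor1 (CoREST), the partner of LSD1, fell by 1.13 ± 0.11 on a shared probe set (adjusted p = 5.19e-05), and lay at 0.09 (adjusted p = 0.688) without shared probe sets. Of 3 measured HDAC3 complex subunits Gps2 and Tbl1x fell, by 0.91 ± 0.27 (adjusted p = 0.0356) and 0.46 ± 0.10 (adjusted p = 0.00761). The Gps2 call ended without tumour replicate 2, normal replicate 1 or normal replicate 2 (adjusted p = 0.158, 0.216 and 0.175), and that of Tbl1x without tumour replicate 1, tumour replicate 2 or normal replicate 2 (adjusted p = 0.0953, 0.0613 and 0.0675). With spike scaling the first list had 2 genes higher and 16 lower, and Chd3 (0.96) and Mta1 (0.52) stayed higher.

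Among 13 other demethylases 3 rose and 2 fell, and among 11 other acetyltransferases 1 fell, beside 30% higher and 24.4% lower among the brighter genes. The 3 that rose are Riox1 and the Y-linked Uty and Kdm5d, whose values are given above with the other sex-linked genes. Riox1, a nucleolar JmjC oxygenase, had 674 and 704 in tumour arrays against 330.1 and 296 in normal arrays and rose by 1.14 ± 0.11 (log2, SE, n = 2 per group, limma adjusted p = 5.68e-05). Kdm7a and Phf2, which erase silencing methyl marks, fell by 0.44 ± 0.12 (adjusted p = 0.0260) and 0.25 ± 0.077 (adjusted p = 0.0422). The Kdm7a call ended without tumour replicate 2, normal replicate 1 or normal replicate 2 (adjusted p = 0.183, 0.155 and 0.106), and that of Phf2 without any 1 of the arrays (adjusted p = 0.0941 to 0.203). Kat8 (MOF) fell by 0.95 ± 0.18 (adjusted p = 0.00336) on a shared probe set. Of 7 measured bromodomain readers of acetylated histones, Brd7, Brd2 and Brd3 rose, by 0.94 ± 0.086 (adjusted p = 3.85e-05), 0.55 ± 0.076 (adjusted p = 0.000494) and 0.35 ± 0.098 (adjusted p = 0.0268). Brd2 and Brd3 lay at -0.05 and -0.25 with spike scaling, and Brd7 stayed higher at 0.34. The Brd3 call ended without any 1 of the arrays (adjusted p = 0.0939 to 0.157).

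Markers of other blood cells moved with the groups compared here. Of 10 macrophage and monocyte markers 8 rose, and their summed intensity was 2027 and 2209.6 in tumour arrays against 104 and 145 in normal arrays, where 5 lay at or below background on both arrays. Of 8 neutrophil markers 7 rose, with sums of 2118 and 2194 against 179.7 and 242 in normal arrays, and of 6 dendritic markers 4 rose, with sums of 793 and 1095 against 211 and 215 in normal arrays. Of 5 measured NK markers 4 rose, with sums of 5377 and 5404, mostly Gzma, against 1132 and 1129 in normal arrays, while Ncr1 lay at or below background on all 4 arrays. Of 4 measured B cell markers Cd79b and Ighm fell, with sums of 2737 and 2553 against 5382 and 4740.4 in normal arrays, and Cd79a lay at or below background on all 4. The 2 measured erythroid markers did not pass (sums of 20.9 and 41.8 against 19.4 and 11.1 in normal arrays), and of 5 stromal and endothelial markers Pecam1 fell (sums of 215 and 206 against 335 and 241 in normal arrays). The part of such cells in the enzyme values was not tested.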

How the data were processed

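Total RNA was converted to biotin-labelled cRNA and hybridized to Affymetrix arrays, as the labels' protocols state. The deposited value for each probe set is an intensity, linear and between 0.08 and 19270. The submitters' processing notes name RMA without a version. Values below 1 are unusual for RMA, so the summarisation is not settled. The upper quartile was 121.9 on all 4 arrays. Log2 was taken with no offset and no filter.

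The 64 control probe sets were left out. Of the other 45037, 34945 had 1 gene symbol, 932 several and 9160 none in GEO's platform annotation, and only those with 1 symbol named genes. A probe set shared by Kdm6b and another gene was thus not used. Symbols were checked through Entrez numbers against RefSeq (GRCm38.p6), where 18032 of 18193 genes matched.

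Differences were fitted with limma 3.58.1 in R 4.3.3 (lmFit, eBayes with trend and robust prior, 2 residual degrees of freedom, prior median 7.27). The replicate SD (log2) was 1.31 in the dimmest 25% of probe sets and 0.10 in the brightest, so a prior that follows the level was used, with a constant prior as an alternative. Enzyme genes, lists, prior and tests were chosen with earlier results of these data known. All 36 genes are named, and from each partner list up to 4 called genes with the largest differences, where the higher group averaged 7 or more (log2). The alternatives were other scalings, filters, an offset, a threshold, other choices of probe set, the replicate number as a block and leaving out each array. Folds with 1 group at or below background are given as "at least", with dim arrays raised to background. The number of arrays limits the precision.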

Additional observations from a re-analysis of the deposited data

How the results depend on the processing

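With limma's constant prior (prior degrees of freedom 1.07) the smallest adjusted p was 0.0684, so 0 probe sets and 0 of the 36 genes were called in either direction and in every class, beside 5479 higher and 5858 lower probe sets and 4 higher and 4 lower enzyme genes at an unadjusted p below 0.05. Scaling to the spike controls gave 2074 higher and 11539 lower probe sets, and 1 higher and 25 lower enzyme genes. By class these were 0 higher and 2 lower flavin-dependent demethylases, 0 and 8 JmjC demethylases, 0 and 7 zinc-dependent deacetylases, 0 higher sirtuins, and 4 lower acetyltransferases. Under it Kdm2a lay at -0.12, Kdm4a at -0.46, Kdm4c at -0.52, Hdac2 at -0.33, Ep300 at -0.44, Kat2b at -0.44, Brd2 at -0.046, Brd3 at -0.25 and Kdm5c at -0.53, all with the opposite sign, since every gene shifts by the same 0.60. At a threshold of 0.01, 4 genes were higher and 5 lower (0 flavin-dependent demethylases and 2 JmjC demethylases lower, 0 deacetylases higher). Averaging all probe sets of a gene gave 3 higher and 11 lower enzyme genes. Among all called genes 51.4% were then higher, against 58.3% in the main fit. Higher were 0 JmjC demethylases and 1 deacetylase, and lower were 2 flavin-dependent demethylases and 1 acetyltransferase, with Kdm6b at -0.76 and Hdac2 at -0.34. Without shared probe sets (_s_at, _x_at) 5 enzyme genes were higher and 12 lower, and 54.6% of all called genes were higher. The 5 include 1 JmjC demethylase, and the 12 include 2 flavin-dependent demethylases and 1 acetyltransferase. Kdm2b then lay at -0.39, Kdm6b at -0.80, Hdac2 at 0.14 (not called), Rcor1 at 0.091 and Supt20 at 0.49, and Hdac3 had no value. The lower deacetylases numbered 2 (with Hdac10) when the dimmest 30% or 50% of probe sets were dropped, in the table of 1 probe set a gene, and with the replicate block. Leaving out 1 array, with a lone array taken to vary like the other group, gave 3325 to 3983 higher and 3184 to 4386 lower probe sets, 4 to 5 higher and 4 to 7 lower enzyme genes, 0 to 1 lower flavin-dependent demethylases, 2 to 3 lower JmjC demethylases, 0 to 1 higher and 1 to 2 lower deacetylases, and 0 to 1 higher and 1 to 2 lower sirtuins. Apart from what is stated, the cause was not tested. Median scaling, renewed quantile normalization and the offset kept all 36 genes on their side of the threshold.

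Of the 17 calls, 5 (Kdm3a, Kdm5b, Hdac7, Sirt7 and Kat2a) passed in the same direction under 15 of 16 alternatives, the exception being the constant prior. Their log2 fold changes ran from -1.07 to -0.44 for Kdm3a, from -3.57 to -2.44 for Kdm5b, from -1.76 to -1.03 for Hdac7, from -1.29 to -0.57 for Sirt7 and from 1.26 to 1.86 for Kat2a. The replicate numbers are not known to pair the samples: the differences between replicates 1 and 2 correlated at r = 0.013 between groups over all probe sets and at 0.25 over 10772 brighter ones. With the replicate block 8 genes were higher and 11 lower, the additions being Kdm6a and Hdac10, beside 6125 higher and 6319 lower probe sets.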
